A study of Mus musculus with 19 samples.

Results

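Solute carrier genes encode membrane transporters, and 16 of the 1609 genes with an expression ratio in this study of mouse skin squamous cell carcinoma belong to them. They were chosen by name alone, as every row of the ratio table whose symbol begins with Slc and a digit or with Slco; no Slco gene was among them. RefSeq lists 389 protein-coding genes with such names, so 373 have no ratio here. The table is presented as a list of differentially expressed genes, and no source used here states its entry rule, so a gene may be listed because its RNA differed, and the 16 are not a sample of the whole family. By family number they include 7 carriers of amino acids, 5 of inorganic ions, 2 mitochondrial carriers and 1 sugar transporter.

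The study sorted cells from C57BL/6 tumours, SCC1 and SCC2, that grew as allografts after 10000 cells were placed in the skin. Quiescent cells were CD71lo H2BGFPhi, proliferative cells CD71hi H2BGFPlo and double negative cells CD71lo H2BGFPlo, where CD71 is the transferrin receptor and H2BGFP is a histone label that thins out as cells divide. Each population of each tumour gave 1 RNA library from 100000 cells, so the 6 RNA libraries hold 2 tumours and no repeat within a tumour. The genotype of SCC1 and SCC2, the driver of the H2BGFP label and the host animals are stated in no source used here. ATAC-seq, which cuts open chromatin, was run on sorted cells of both tumours, with a CD71hi H2BGFPhi population added, and on 2 Tgfbr2KO libraries, which lack a TGF-β receptor, of a tumour named SCC3. The ATAC peaks come as 1 merged list, and no source used here states which libraries entered it. Smad2/3, the DNA-binding relays of TGF-β signalling, were mapped by ChIP-seq in SCC1 cells cultured in 50 uM calcium with 5 ng/mL TGFβ1 for 1 h, so the sites come from treated cultured cells and not from the sorted populations. Input DNA of SCC1 and SCC2 gave copy numbers. Both input samples are listed with the same calcium and TGFβ1 treatment, so copy numbers also do not come from the sorted populations.

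Solute carriers move small molecules across membranes, either down their gradient or by coupling them to ions or to the exchange of another solute. Amino acid carriers such as Slc7a5 and Slc1a5 feed protein synthesis and growth signalling and are known to be abundant in dividing cells and many carcinomas. Ion carriers of the Slc4 family set cell pH through bicarbonate, those of Slc12 set cell volume through chloride, and Slc25 proteins sit in the inner mitochondrial membrane. Slc2a1, the glucose transporter GLUT1, is a well-known gene of basal keratinocytes and squamous tumours.

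RefSeq promoter windows, the 250 bases before a transcription start on build GRCm38.p6, were found for 10 of the 16 genes and give 14 starts. A merged ATAC peak overlapped 6 of these windows, in Slc2a1, Slc6a14, Slc7a1, Slc24a3, Slc25a13 and Slc25a24, beside 35.4% of 32851 RefSeq mouse promoter windows. No listed Smad2/3 site overlapped any of the 14, and the share over all promoter windows is not given for sites. Genes without a window include Slc1a5, Slc4a11, Slc6a6, Slc7a5 and Slc12a2. Peaks outside the windows are not counted here, such as chr14:14702501-14703350 over the lower-numbered end of Slc4a7. The 3 windows that hold the AP-1 letters TGACTCA on either strand all lie at a start with a peak, and they are shown because these letters and a peak meet there. They belong to Slc6a14 (chrX:21714650-21714899, plus strand, motif 82 bases before the start), Slc7a1 at its second start (chr5:148399905-148400154, minus strand, 123 bases) and Slc25a13 (chr6:6217174-6217423, minus strand, 130 bases). Slc2a1 (chr4:119108495-119108744, plus strand) is shown for the Smad letters GTCTGG, 110 bases before the start on the opposite strand, and Slc24a3 at its first start (chr2:145167525-145167774, plus strand) as a start of 80.8% GC with a peak and none of the letters searched. Each is written 5′ to 3′ on the strand of the gene, with the matched letters in capitals.
Slc6a14: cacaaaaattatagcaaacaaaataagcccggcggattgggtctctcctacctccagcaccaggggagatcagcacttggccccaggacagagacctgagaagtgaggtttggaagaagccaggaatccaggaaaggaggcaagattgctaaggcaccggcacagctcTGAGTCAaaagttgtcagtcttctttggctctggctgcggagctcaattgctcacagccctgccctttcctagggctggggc
Slc7a1: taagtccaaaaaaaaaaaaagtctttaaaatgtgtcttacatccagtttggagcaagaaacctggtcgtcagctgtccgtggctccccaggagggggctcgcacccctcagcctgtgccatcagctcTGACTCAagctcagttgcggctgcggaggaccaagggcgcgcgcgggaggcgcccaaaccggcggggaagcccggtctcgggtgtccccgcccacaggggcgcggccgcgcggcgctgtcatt
Slc25a13: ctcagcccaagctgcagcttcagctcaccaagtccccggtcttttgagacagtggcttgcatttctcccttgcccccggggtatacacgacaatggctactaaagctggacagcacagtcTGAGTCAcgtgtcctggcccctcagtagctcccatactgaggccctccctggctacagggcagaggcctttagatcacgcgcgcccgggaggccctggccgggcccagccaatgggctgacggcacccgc
Slc2a1: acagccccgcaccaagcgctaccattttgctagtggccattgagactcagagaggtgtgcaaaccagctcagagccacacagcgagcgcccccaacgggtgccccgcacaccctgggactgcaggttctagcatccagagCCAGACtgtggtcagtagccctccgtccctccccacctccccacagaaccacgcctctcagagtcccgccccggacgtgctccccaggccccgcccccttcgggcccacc
Slc24a3: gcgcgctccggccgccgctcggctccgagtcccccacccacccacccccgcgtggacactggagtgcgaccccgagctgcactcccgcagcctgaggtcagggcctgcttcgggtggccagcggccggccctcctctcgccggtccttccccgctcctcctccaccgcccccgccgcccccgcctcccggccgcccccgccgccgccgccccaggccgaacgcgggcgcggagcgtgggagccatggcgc

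TGACTCA was in 3 of the 14 windows and in 4.46% of 32851 RefSeq mouse promoter windows of the same length. The looser TGANTCA, which includes TGACTCA, matched the same 3 windows and 6.75% of all. GTCTGG was in 2 windows, those of Slc2a1 and Slc25a24, and in 14.7% of all, while CAGACA was in 1, that of Slc25a24, and in 17.1% of all. In the window of Slc25a24 both Smad searches overlap in 1 run of letters. The 3 genes with TGACTCA did not share a direction in the expression data given next, since Slc6a14 RNA was higher and Slc25a13 RNA lower in non-proliferative cells of both tumours. A run of letters is a description of the window and no measured binding.

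The first comparison asked how RNA of the carriers differs between quiescent and proliferative cells. In this contrast 6 of the 16 carriers had more RNA in quiescent cells of both tumours, beside 35.8% of the 1609 rows, and 8 were lower in both, beside 52.3% of rows. Over the 1567 rows away from the table's limit the median stood at -0.62 in SCC1 and -0.50 in SCC2. The rows come from a list of differentially expressed genes, so their median need not mark unchanged RNA. Centring each column on that median turned Slc1a3 and Slc25a24 positive in SCC1 and Slc4a4 in SCC2, which made 8 carriers higher and 7 lower in both tumours. The 6 included Slc2a1, Slc6a6, Slc6a14, Slc24a3 and Slc43a2, and the 8 were Slc1a5, Slc4a7, Slc4a11, Slc7a1, Slc7a5, Slc12a2, Slc25a13 and Slc25a24. A log2 ratio of 1 means 2 times as much RNA, and ratios of at least 1 in size with the same sign in both tumours were found for Slc6a14 and Slc24a3 on the higher side (11.3% of rows) and for Slc7a1 on the lower side (23.3% of rows). No carrier passed limma, the moderated test across the 2 tumours used here with Benjamini-Hochberg adjustment over 1567 rows at 0.05, and 0.0% of rows passed it as higher and 0.0% as lower. Below an unadjusted p of 0.05 in limma were 423 rows and 1 carrier, Slc7a1. Adjusted p-values of the carriers ran from 0.18 to 0.421 in limma.

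Double negative cells were set against proliferative cells to see the second CD71-low population in the same way. Here 4 carriers rose, among them Slc6a14, Slc4a4 and Slc24a3, and 3 fell, Slc7a5, Slc25a13 and Slc1a5 (limma, adjusted p from 0.0228 to 0.0443). Over all tested rows, 23.0% rose and 35.9% fell, so the share of carriers that rose was near that of the rows, and the share that fell, 18.8%, was below it. Genes may have entered the table by such differences, so these shares describe the table and not the transcriptome. For the same reason the adjusted p-values hold within this list and give no error rate over all expressed genes. By sign alone 7 carriers were higher in double negative cells of both tumours and 8 lower, beside 42.6% and 50.9% of rows, and Slc2a1 had opposite signs; centring turned 2 of the lower ones in SCC1 (Slc4a11, Slc25a24) and Slc4a7, Slc7a1 and Slc12a2 in SCC2, which with Slc2a1 made 8 higher and 3 lower. Ratios of at least 1 in size in both tumours were found for Slc1a3 and Slc6a14 on the higher side (15.5% of rows) and for Slc7a5 and Slc25a13 on the lower side (25.2% of rows). The scaling between libraries is not given, and the median over the rows away from the limit stood at -0.36 in both SCC1 and SCC2. With each column centred on its median, 490 rows rose and 340 fell instead of 360 and 562. Centring is given as an alternative scale, and whether it lies nearer the true scale than the deposited ratios was not tested. Of the carriers, 6 then rose and 1 fell: Slc1a3 (adjusted p = 0.0449 in limma) and Slc6a6 (adjusted p = 0.039 in limma) joined, and Slc1a5 (0.0823) and Slc25a13 (0.0536) no longer passed.

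**Figure D1:**
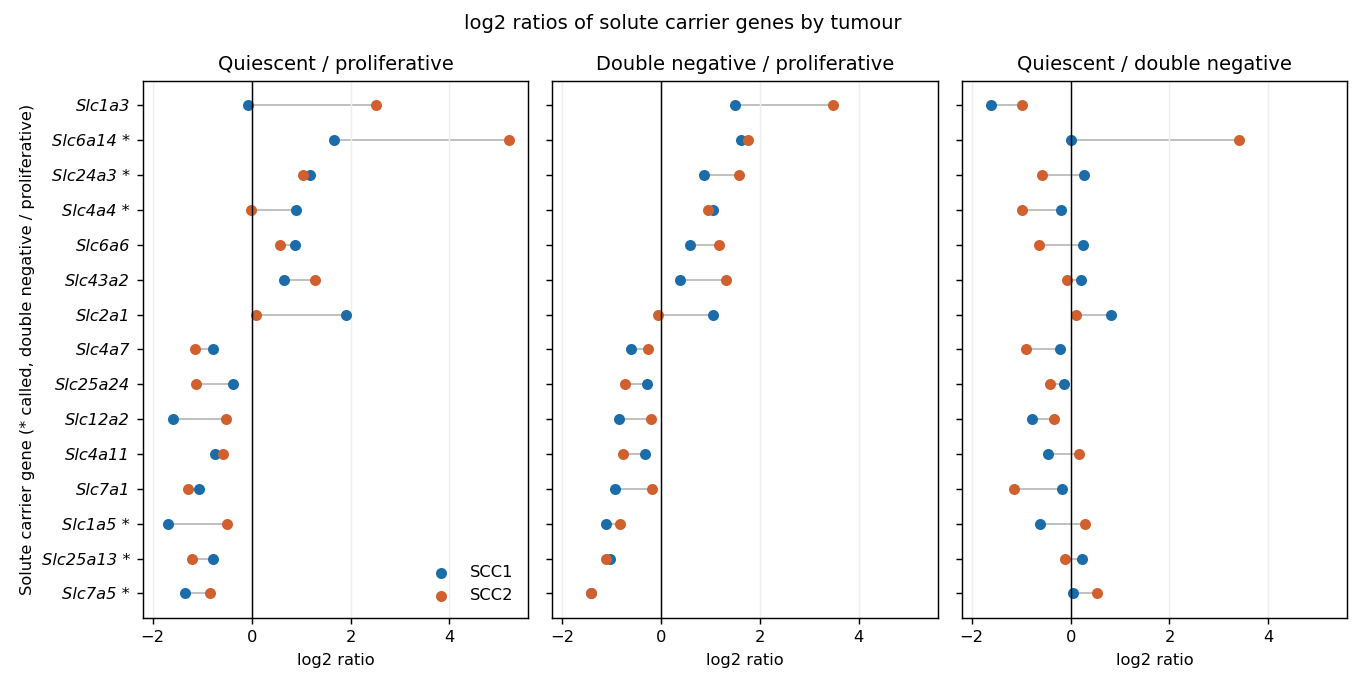
Deposited log2 ratios (horizontal axis) of 15 carriers (vertical axis, ordered by their mean in double negative against proliferative cells) for SCC1 in blue and SCC2 in orange, with a grey line joining the tumours and an asterisk on the 6 drawn genes that passed limma in that contrast. In the middle panel the points of both tumours lie on the same side of 0 for every gene but Slc2a1 (those of Slc7a5 coincide), while Slc6a14 and Slc1a3 differ most between tumours in the left panel.

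Amino acid carriers made up the largest class and moved in both directions. Of its 7 genes, 1 rose and 2 fell in double negative cells, beside 23.0% and 35.9% of rows. With centring 3 rose (Slc1a3, Slc6a6 and Slc6a14) and 1 fell (Slc7a5), beside 490 and 340 of the 1567 rows. Slc7a5, which exchanges leucine and other large neutral amino acids for glutamine, stood in the authors' deposited table at log2 ratios of -1.34 (SCC1) and -0.85 (SCC2) for quiescent against proliferative cells. For double negative against proliferative cells the authors' deposited table put it at -1.42 in each tumour, and for quiescent against double negative cells at 0.04 and 0.53. It fell in double negative cells by 1.42 on the log2 scale (SE 0.17, n = 2 tumours, limma adjusted p = 0.0262), and it was the lowest carrier there in both tumours. Each SE given here is the moderated one of limma, which draws on the spread of all tested rows. It is not the spread of a gene's 2 ratios alone.

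Slc1a5, a sodium-coupled exchanger best known for glutamine, had ratios of -1.69 and -0.51 in quiescent and of -1.11 and -0.83 in double negative cells, each against proliferative cells of SCC1 and SCC2, in the authors' deposited table. Quiescent against double negative cells gave -0.61 and 0.29 (authors' deposited table). All 4 ratios against proliferative cells were below 0, and the fall in double negative cells was 0.97 on the log2 scale (limma, adjusted p = 0.0393), with a centred mean of -0.61 that did not pass. Slc7a1, which carries arginine and lysine, had -1.07 and -1.28 in quiescent and -0.94 and -0.18 in double negative cells against proliferative cells in the authors' deposited table, and -0.17 and -1.14 between quiescent and double negative cells. It was lower than in proliferative cells in all 4 pairs as deposited, though the SCC2 double negative ratio turned positive with centring, and it did not pass limma (adjusted p = 0.174 for double negative cells).

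Slc6a14, which takes up neutral and cationic amino acids with sodium and chloride, was the carrier with the highest single ratio. The authors' deposited table gave it 1.66 in SCC1 and 5.20 in SCC2 for quiescent against proliferative cells, and 1.62 and 1.77 for double negative against proliferative cells. Between quiescent and double negative cells the authors' deposited table gave -0.001 in SCC1 and 3.41 in SCC2. The double negative ratios of both tumours lay close together, and the rise there was 1.69 on the log2 scale (SE 0.18, n = 2 tumours, limma adjusted p = 0.0228). The quiescent ratios lay far apart, with a mean of 3.43 over the 2 tumours and a moderated SE of 1.12 (limma, adjusted p = 0.18).

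Slc1a3, a sodium-coupled glutamate and aspartate transporter known from glia, had -0.08 (SCC1) and 2.52 (SCC2) for quiescent against proliferative cells in the authors' deposited table. In double negative against proliferative cells its ratios in the authors' deposited table were 1.49 and 3.48, and in quiescent against double negative cells -1.61 and -0.97. It was thus higher in double negative than in either other population in both tumours, while quiescent and proliferative cells of SCC1 were nearly level as deposited and differed by 0.54 when centred. The double negative mean of 2.48 was the highest of the carriers, and with an SE of 0.62 it did not pass limma (adjusted p = 0.0519). Slc1a3 was also the 1 carrier below an unadjusted p of 0.05 between quiescent and double negative cells (limma, adjusted p = 0.999).

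Slc6a6, the taurine transporter, had 0.89 and 0.56 in quiescent and 0.59 and 1.17 in double negative cells of SCC1 and SCC2, each against proliferative cells, in the authors' deposited table. Quiescent against double negative cells had 0.26 and -0.64 (authors' deposited table). All 4 ratios against proliferative cells were positive, with means of 0.73 (SE 0.36) and 0.88 (SE 0.25) that did not pass limma (adjusted p = 0.206 and 0.062). Slc43a2, a facilitative carrier of branched-chain and other large neutral amino acids, had 0.65 and 1.28 in quiescent and 0.39 and 1.32 in double negative cells against proliferative cells in the authors' deposited table, with 0.22 and -0.07 between the CD71-low populations. It was positive in all 4 pairs, the higher value each time in SCC2, and did not pass limma (adjusted p = 0.189 and 0.106). Slc43a2 and Slc7a5 thus carry overlapping amino acids and had opposite signs against proliferative cells in both tumours.

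Ion carriers were also divided. Of 5 genes, 2 rose in double negative cells and none fell in limma, beside 23.0% and 35.9% of rows. Slc24a3, which exchanges sodium for calcium and potassium, had ratios above 1 in both tumours for quiescent against proliferative cells, at 1.18 (SCC1) and 1.03 (SCC2) in the authors' deposited table. For double negative against proliferative cells the authors' deposited table gave 0.87 and 1.58, and for quiescent against double negative cells 0.27 and -0.58. It rose in double negative cells by 1.22 on the log2 scale (SE 0.28, n = 2 tumours, limma adjusted p = 0.0443), a call lost at an adjusted p of 0.06 when the rows at the limit of the table entered the limma test. Its quiescent mean was 1.10 with an SE of 0.35 (limma, adjusted p = 0.18).

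Slc4a4, an electrogenic sodium bicarbonate cotransporter, rose in double negative cells by 1.00 on the log2 scale (SE 0.18, limma adjusted p = 0.0366). The authors' deposited table gave 1.05 and 0.95 for that contrast in SCC1 and SCC2, 0.89 and -0.01 for quiescent against proliferative cells, and -0.20 and -0.98 for quiescent against double negative cells. In SCC2 its RNA was level between quiescent and proliferative cells as deposited, positive when centred, and higher in double negative cells. Slc4a7, an electroneutral sodium bicarbonate cotransporter of the same family, had -0.78 and -1.15 in quiescent and -0.61 and -0.27 in double negative cells against proliferative cells in the authors' deposited table. It thus had the opposite sign to Slc4a4 in double negative cells of both tumours as deposited, with the SCC2 value turning positive when centred, and it did not pass limma (adjusted p = 0.184 and 0.146).

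Slc12a2, which brings sodium, potassium and chloride into the cell together, had -1.60 and -0.52 in quiescent and -0.85 and -0.20 in double negative cells against proliferative cells in the authors' deposited table. Slc4a11, a relative of the bicarbonate carriers known from corneal endothelium, had -0.74 and -0.58 in quiescent and -0.32 and -0.77 in double negative cells in the authors' deposited table. Both genes were below 0 in all 4 pairs as deposited. Centring turned the SCC2 double negative value of Slc12a2 and the SCC1 double negative value of Slc4a11 positive, and neither gene passed limma (adjusted p = 0.163 and 0.117 for double negative cells). Between quiescent and double negative cells Slc12a2 had -0.79 and -0.34 in the authors' deposited table, Slc4a7 had -0.21 and -0.90, and Slc4a11 had -0.46 and 0.16.

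Both mitochondrial carriers were lower in both CD71-low populations of each tumour as deposited, though centring turned the SCC1 values of Slc25a24. Slc25a13, the aspartate and glutamate carrier of the malate-aspartate shuttle, had -0.78 and -1.20 in quiescent and -1.04 and -1.12 in double negative cells against proliferative cells in the authors' deposited table, and 0.22 and -0.10 between the CD71-low populations. It fell in double negative cells by 1.08 on the log2 scale (SE 0.18, limma adjusted p = 0.0347), and its centred mean was -0.72, which did not pass. Slc25a24, which exchanges ATP-Mg for phosphate, had -0.37 and -1.12 in quiescent and -0.28 and -0.73 in double negative cells in the authors' deposited table, and -0.12 and -0.42 between quiescent and double negative cells. Slc25a24 was further from 0 in SCC2 than in SCC1 in each contrast and did not pass limma (adjusted p = 0.226 and 0.131).

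Slc2a1, the glucose transporter, had ratios well above 0 in SCC1 and close to 0 in SCC2. In SCC1 the authors' deposited table gave 1.90 for quiescent and 1.04 for double negative against proliferative cells, and 0.81 between quiescent and double negative cells. In SCC2 the same 3 ratios of the authors' deposited table were 0.09, -0.05 and 0.11. Slc2a1 RNA was thus ordered quiescent, double negative, proliferative in SCC1 and was nearly level over the 3 populations of SCC2 as deposited, and centring turned the SCC2 double negative ratio positive. Its means of 1.00 (SE 0.64) and 0.50 (SE 0.37) over the 2 tumours did not pass limma (adjusted p = 0.269 and 0.294).

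**Figure D2:**
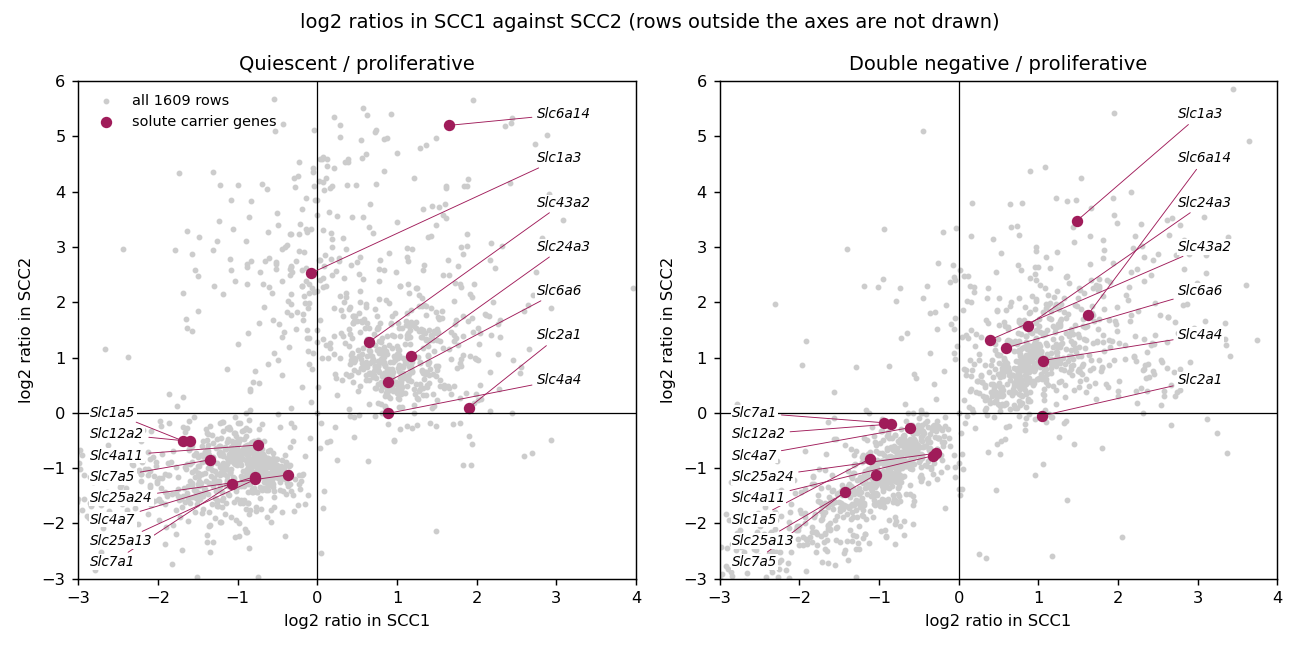
Deposited log2 ratios of SCC1 (horizontal axis) against SCC2 (vertical axis) for all rows in grey and 15 carriers in red, labelled through thin lines. Carriers lie mainly in the lower left and upper right corners, with Slc2a1 close to the horizontal line at 0 in both panels and Slc1a3 near the vertical line in quiescent against proliferative cells.

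The 2 CD71-low populations were then set against each other. No carrier passed limma between quiescent and double negative cells, and 0.0% of rows passed as higher and 0.0% as lower. Below an unadjusted p of 0.05 in limma were 44 rows and 1 carrier, Slc1a3. Higher in quiescent cells of both tumours were 2 carriers, Slc2a1 and Slc7a5, beside 16.3% of rows, though centring turned the SCC2 value of Slc2a1. Lower in both were 6, Slc1a3, Slc4a4, Slc4a7, Slc7a1, Slc12a2 and Slc25a24, beside 30.0% of rows, and centring turned the SCC1 values of Slc4a4, Slc4a7, Slc7a1 and Slc25a24. Ratios of at least 1 in size in both tumours were found for 0 carriers in either direction, beside 1.31% of rows on the higher side and 2.3% on the lower. The 3 contrasts share libraries, and within a tumour the third ratio follows from the other pair to within 0.04 on the log2 scale for every carrier, so they are not separate measurements.

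Across the 16 carriers the SCC1 and SCC2 ratios had a Pearson r of 0.85 and a Spearman rho of 0.86 for double negative against proliferative cells. For quiescent against proliferative cells these were 0.62 and 0.67, and for quiescent against double negative cells 0.18 and 0.19. Over the 1567 rows away from the limit the Pearson values, in the same order, were 0.84, 0.61 and -0.19. These are correlations across genes, which share libraries and are not independent replicates, and are given as a description. Carriers had the same sign in both tumours in 15, 14 and 8 of 16 cases, or 93.8%, 87.5% and 50.0%, beside 93.5%, 88.1% and 46.4% of rows. The median ratio of the carriers against proliferative cells was -0.23 in SCC1 and -0.26 in SCC2 for quiescent cells, where all 1609 rows, those at the limit included, had -0.61 and -0.49. For double negative cells it was 0.05 and -0.12, where the rows had -0.35 and -0.34. Between quiescent and double negative cells it was -0.06 and -0.33, where the rows had -0.23 and 0.13.

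Genes of other cell types moved with the same contrasts. The 11 fibroblast markers with a ratio, of 13 listed, had medians in the authors' deposited table of 0.08 (SCC1) and 4.42 (SCC2) for quiescent against proliferative cells. Their medians for double negative against proliferative cells were 2.71 and 1.24, where 6 rose and 1 fell (limma), and for quiescent against double negative cells -2.69 and 3.11. The median fibroblast marker was thus highest in quiescent cells of SCC2 and in double negative cells of SCC1. The 7 immune markers, of 13 listed, had medians of -0.30 and 2.87 in quiescent and 1.16 and 0.95 in double negative cells against proliferative cells, and 2 rose in double negative cells (limma). The 2 endothelial markers, of 8 listed, had medians of -0.72 and 1.82 in quiescent and 5.09 and 3.08 in double negative cells, and both rose in double negative cells (limma).

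Slc6a14 at 5.20 and Slc1a3 at 2.52 in the authors' deposited table were the carriers with the highest quiescent ratios in SCC2, where the fibroblast and immune medians were also high. For quiescent against double negative cells of SCC2 the fibroblast and immune medians were 3.11 and 2.29. There Slc6a14 had 3.41 and Slc1a3 had -0.975 (authors' deposited table), so Slc1a3 had the opposite sign to the medians. The part of other cells in these ratios was not tested. In these bulk samples fewer cells of a type and less RNA per cell cannot be told apart. Of the 11 keratinocyte markers listed for this check only Epcam had a ratio (-3.21 and -0.40 in quiescent, -1.93 and -0.68 in double negative cells, authors' deposited table), and of 8 adipocyte and muscle markers only Tnnt3, which fell in double negative cells (limma) with ratios of -1.84 and -1.29 in the authors' deposited table. None of 8 melanocyte and nerve markers had a ratio. Keratin genes outside that list with a ratio numbered 5 and were of mixed direction for quiescent against proliferative cells, with 1 higher and 2 lower in both tumours and 2 of opposite sign. A list of ratios gives no levels, so it cannot show whether keratinocyte genes were expressed. The sorting gene Tfrc and the cycling genes Mki67, Top2a, Ccnb1 and Cdk1 were lower in both CD71-low populations of both tumours, and all 5 fell in double negative cells (limma).

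Genes that make amino acids were listed beside the carriers that import them. Of 19 listed genes of amino acid synthesis and the ATF4 stress response, 6 had a ratio, and all 6 were lower in quiescent and in double negative cells of both tumours as deposited, though centring turned the SCC1 ratios of 1 of them and the SCC2 quiescent ratio of Phgdh. Psat1 and Phgdh of serine synthesis, Mthfd2 of mitochondrial one-carbon metabolism and Cth of cysteine synthesis fell in double negative cells, with mean log2 ratios of -1.48, -1.11, -1.71 and -1.44 (limma, adjusted p from 0.0257 to 0.0376). Aldh18a1 of proline synthesis, at a mean of -0.82, did not pass (limma, adjusted p = 0.0847). The median of the 6 was -1.29 in SCC1 and -1.18 in SCC2 for double negative cells, below the -0.35 and -0.34 of all rows.

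Other transporters gave small groups. Of 4 ABC transporters, which use ATP to move lipids and other cargo, the cholesterol exporters Abca1 and Abcg1 rose in double negative cells by mean log2 ratios of 2.23 and 2.42 (limma, adjusted p = 0.0226 and 0.0402). Abce1, a factor of ribosome recycling that moves no cargo itself, had -0.53 and did not pass (limma, adjusted p = 0.0823). Of 3 P-type ATPase genes, Atp13a4 and Atp10a fell to mean log2 ratios of -1.94 and -1.501 (limma, adjusted p = 0.0257 and 0.026), and Atp1b1, the beta subunit of the sodium pump, had a mean of 2.89 and did not pass (limma, adjusted p = 0.0636). Aqp3, the glycerol and water channel of epidermis, had 1.78 and -0.19 (SCC1 and SCC2) for quiescent against proliferative cells in the authors' deposited table. Slc2a1 had the same kind of split between tumours. Of 21 glycolysis genes only Ldhb had a ratio, -0.995 and 1.25 in quiescent and 0.19 and 2.19 in double negative cells in the authors' deposited table, and it did not pass limma (adjusted p = 0.178 for double negative cells).

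Smad2/3 sites and open chromatin near the carriers were read from the deposited position lists. The Smad2/3 list holds 6143 sites of 201 bp that carry a motif, and the merged ATAC list 61553 peaks, both without scores. A site within 10 kb of the gene body was found for 8 of the 16 carriers, or 50.0%, with 18 sites in all. Among 1600 rows with a position 342, or 21.4%, had one, and among the 373 solute carrier genes without a ratio 68, or 18.2%. Carriers are long genes, with a median window of 90.4 kb beside 38.7 kb over the rows, and the density was 0.843 sites per 100 kb beside 0.573. Of the 18 sites, 6 were at Slc6a6 and 4 at Slc2a1, so the pooled density does not describe each carrier. Within windows of 50 to 200 kb, 3 of 9 carriers (33.3%) and 122 of 517 rows (23.6%) had a site.

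Slc6a6 (chr6:91684048-91759063) had 6 sites, all inside the gene, and 4 of the 1600 rows had more. Within 50 kb it had 14 sites, of which 3 lay in an ATAC peak, and 7 of the 14 lay between -49.9 and -26.8 kb from the lower-numbered gene end. The 2 sites of Slc6a6 inside the gene that lay in a peak were chr6:91689272-91689472 and chr6:91727009-91727209. Slc2a1 (chr4:119108745-119137330) had 4 sites within 10 kb, of which 1 lay in the gene, 1 before its start and 2 beyond its end, and 13 rows had more. The site before the start, chr4:119102370-119102570, was the 1 of the 4 in an ATAC peak. It lay at -6.3 kb from the start, outside the promoter window printed above.

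Slc7a5 (chr8:121881146-121907686) had 2 sites in the gene, of which chr8:121898383-121898583 lay in a peak. Slc24a3 (chr2:145167775-145642166) had 2, chr2:145219231-145219431 and chr2:145274212-145274412, both in a peak and both in the gene. Slc4a4, Slc4a11, Slc7a1 and Slc43a2 had 1 site each, all in the gene, and those of Slc4a4 and Slc43a2 lay in a peak. The other 8 carriers had none within 10 kb. Whether a site falls in an exon or an intron was not analysed here.

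**Figure D3:**
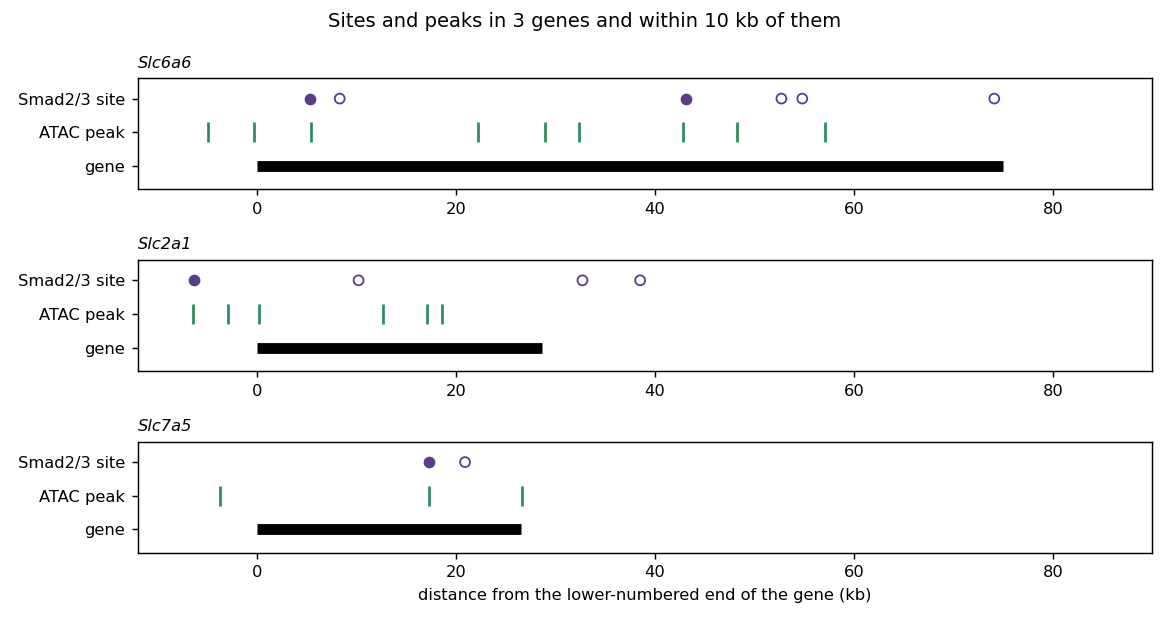
Listed Smad2/3 sites (circles, filled where the site lies in a merged ATAC peak) and ATAC peaks (green ticks) in Slc6a6, Slc2a1 and Slc7a5 and within 10 kb of them, against distance in kb from the lower-numbered end of the gene (black bar). The 6 sites of Slc6a6 all lie over the gene, while 3 of the 4 of Slc2a1 lie beside it.

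Of the 18 sites 8, or 44.4%, lay in a merged ATAC peak, beside 60.1% of all sites. Among carriers with more than 1 site the count in a peak was 2 of 6 in Slc6a6 and 1 of 4 in Slc2a1. It was 1 of 2 in Slc7a5 and 2 of 2 in Slc24a3, so the pooled share is not a share of each carrier. Of the 7 carriers that were higher in double negative cells of both tumours 4 had a site, beside 24.8% of the rows that were higher. Of the 8 that were lower 3 had a site, Slc4a11, Slc7a1 and Slc7a5, beside 18.8% of such rows. Of these 3, Slc4a11 in SCC1 and Slc7a1 in SCC2 turned positive with centring. The 4 on the higher side, Slc4a4, Slc6a6, Slc24a3 and Slc43a2, are 446, 75.0, 474 and 47.7 kb long. These shares were not matched for gene length. Slc6a14, which rose, and Slc25a13 and Slc1a5, which fell, had none. All 16 carriers had at least 1 ATAC peak within 10 kb, with a median of 5.5 and a range of 1 to 26, beside a median of 2.0 over the rows, of which 93.9% had one. Slc24a3 had the most with 26, followed by Slc4a4 with 14. Per 100 kb the carriers had 5.01 peaks and the rows 5.23, so the higher count per gene went with longer windows. The peak list is merged over populations and gives no accessibility per population.

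**Figure D4:**
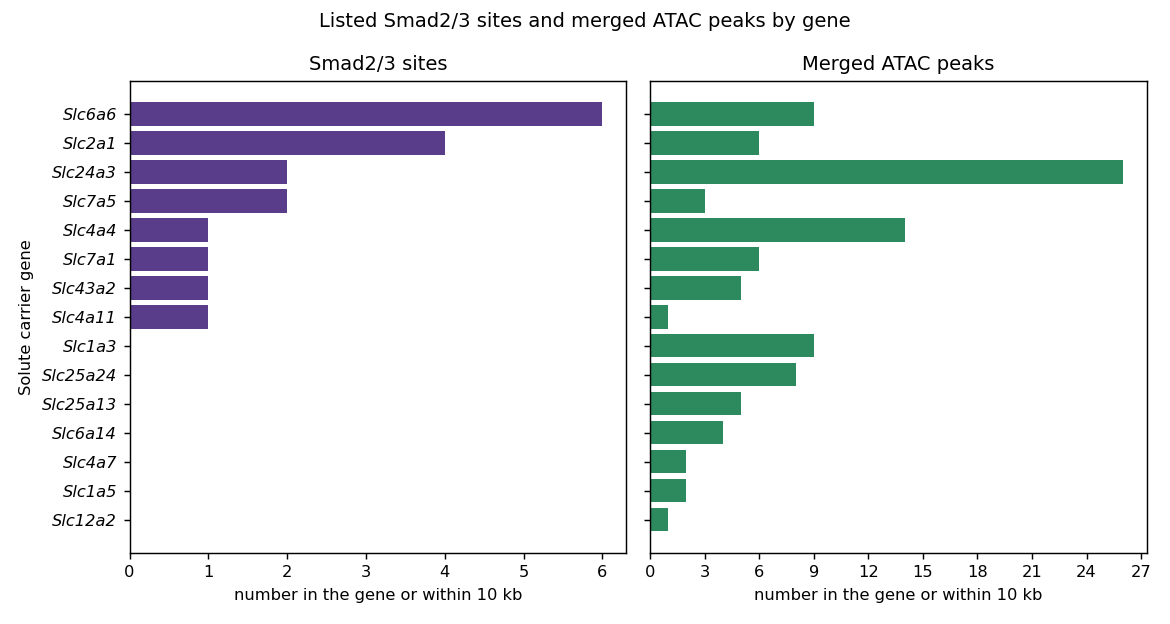
Number of listed Smad2/3 sites (left) and merged ATAC peaks (right) in each of 15 carriers or within 10 kb. Slc6a6 has the most sites with 6 and Slc24a3 the most peaks with 26, and the 7 drawn carriers without a site have between 1 and 9 peaks.

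Copy number was read from regions the authors called in input DNA. In SCC1 6 carriers lay in a called region and in SCC2 4, beside 46.6% and 45.4% of rows, and every call over a carrier was a gain. Over the rows 45.1% and 44.1% lay in a gain, so nearly all calls over rows were gains as well. Slc1a5 and Slc7a1 were listed at 3 copies in both tumours, and Slc43a2 at 4 in SCC1 and 3 in SCC2. Slc1a3, Slc6a14 and Slc25a24 were listed at 3 copies in SCC1 only, and Slc4a11 at 3 in SCC2 only. The expression ratios compare populations of 1 tumour, and the input DNA was not split by population. No carrier with a ratio had an entry in the authors' mutation list, which covers 540 genes. The share of all rows with an entry is not given here, so this count sets the carriers apart from no other genes.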

How the data were processed

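RNA libraries were aligned and compared with TopHat2 2.0.9, Cufflinks 2.2.0 and Cuffdiff 2.2.0 on mm10, per the submitters' processing notes; for double negative libraries these name mm9 too. The authors deposited log2 ratios between populations within each tumour, 6 per gene. No source used here gives their scaling, levels, q-values or depth. A few values reach or pass a limit of 12, and the 42 rows within 0.1 of it or beyond were left out of tests. Smad2/3 sites and merged ATAC peaks are positions without scores, from Bowtie and, for ChIP and input, Picard 1.88, per the submitters' processing notes. The authors' copy number table gives whole copies and a p-value per region, per the file headers. Their mutation table gives read counts at each site and the percent of reads showing the changed base, rounded to whole percent as deposited. No source used here names the callers.

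Per contrast, limma 3.58.1 in R 4.3.3 was fitted to the 2 within-tumour ratios of 1567 rows (intercept only, eBayes, two-sided, Benjamini-Hochberg, 0.05). Nothing says that the sorted libraries were repeated within a tumour, so the 2 tumours are the only replicates. The variance behind each SE and p-value combines the spread of a gene's 2 ratios with a prior spread from all tested rows. That prior had 1.69 to 1.81 degrees of freedom over the contrasts, beside 1 from the 2 ratios. The p-values thus do not measure the spread between the 2 tumours alone, and the design assumes the same spread model for all rows. The tested rows may have been selected by differences in these same libraries, which the p-values do not account for. Tests were tested on simulated data. Windows were RefSeq GRCm38.p6 gene bodies with 10 kb either side, with an overlap of 1 bp. Of the rows, 1492 matched by symbol, 108 by a synonym and 9 not at all, and all 16 carriers matched by symbol. Promoter sequences are RefSeq's. Of the 16 members 15 are named, and the values of 1 member and of a few other listed genes are not reported here. The members and gene lists (other transporters, glycolysis, amino acid synthesis, cell type markers, sorting genes) were chosen with earlier results of these data known. Alternatives covered the call rule, rows at the limit, robust eBayes, centring, each tumour alone, the window, sites in peaks, the p of copy number calls and read depth. Figures used matplotlib 3.10.9, and other steps used pandas 2.3.3 and numpy 2.4.6 in Python 3.11.15, with scipy 1.17.1 for intervals.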

Additional observations from a re-analysis of the deposited data

How the results depend on the processing

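With rows at the limit of the table kept, 6 of the 7 carriers called for double negative against proliferative cells stayed called and Slc24a3 was lost (limma, adjusted p = 0.06). With robust eBayes all 7 stayed, and with centring 5 stayed, Slc1a5 and Slc25a13 were lost and Slc1a3 and Slc6a6 were gained. For quiescent against proliferative cells and for quiescent against double negative cells 0 carriers were called under each of these fits, beside 0 in the main test. Kept limit rows gave 10 rows called higher and 6 lower in quiescent against proliferative cells, and 2 and 5 in quiescent against double negative cells.

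Untested rules gave other counts. For quiescent against proliferative cells 3 carriers had ratios of at least 1 in size and the same sign in both tumours, 14 had the same sign, and with either tumour left out 8 reached 1 in size in the remaining one. For double negative against proliferative cells the counts were 4 and 15, with 7 in each tumour alone. For quiescent against double negative cells they were 0 and 8, with 2 carriers in SCC2 alone and 1 in SCC1 alone. Over all rows the median size of the ratio was 1.08 (SCC1) and 1.24 (SCC2) for quiescent against proliferative cells. It was 1.04 and 1.18 for double negative against proliferative cells, and 0.375 and 0.546 between quiescent and double negative cells. A ratio of 1 in size against proliferative cells in a single tumour was thus common among the rows. The limma test is paired by construction, as it uses ratios taken within a tumour. No paired analysis was possible beyond that, and no unpaired one, because single-library values are not analysed here. A Smad2/3 site was found for 8 carriers with a window of 5 kb or the gene body, for 9 with 50 kb and for 6 when sites had to lie in an ATAC peak. The share over all rows is not given for these settings. All 16 had an ATAC peak in each window. Copy number calls with an authors' p under 0.001 still held 7 carriers, and no carrier had a listed mutation with or without a minimum of 20 reads. Precision is limited by 2 tumours with 1 library per population and an unknown depth.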

Other observations

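Solute carrier genes outside the ratio table also had Smad2/3 sites. Slc22a23 and Slc50a1, a sugar carrier of the SWEET family, had 4 each within 10 kb, as many as Slc2a1, and genes with 3 included Slc20a2, Slc23a4, Slc25a48, Slc34a3, Slc4a1ap, Slc5a10 and Slco3a1. Slc4a1ap encodes an adaptor protein of an anion exchanger and is no carrier itself. None had as many as the 6 of Slc6a6. These genes have no expression ratio here, so their RNA was not analysed here.

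The authors' mutation list holds 3 solute carrier genes, none of them with a ratio. Slc35e4 carried the coding change A854T in exon 2, listed as H285L, in all 4 libraries. The alternative base made up 24% of 82 reads in SCC1 proliferative cells (exact 95% binomial interval 15.6% to 35.1%) and 12% of 69 reads in SCC1 quiescent cells (5.14% to 21.6%). In SCC2 it made up 39% of 80 reads in proliferative cells (28.1% to 50.3%) and 80% of 10 reads in quiescent cells (44.4% to 97.5%). The SCC2 quiescent interval lies above both SCC1 intervals, at 10 reads. Within each tumour the intervals of proliferative and quiescent cells overlap. Slc35a1, the CMP-sialic acid carrier of the Golgi, had T296P in SCC1 at 48% of 21 reads in proliferative and 46% of 22 reads in quiescent cells. Slc30a5, a zinc transporter, had A350T at 46% of 11 reads in SCC2 proliferative cells. The intervals come from the rounded percent and hold counting error alone, because PCR reads are not separate molecules.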
